A study of Homo sapiens with 4 samples.

Results

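The hairpins MIR221 and MIR222 give rise to 4 mature miRNAs, hsa-miR-221-3p, hsa-miR-221-5p, hsa-miR-222-3p and hsa-miR-222-5p (written below without the prefix), which are described here across the libraries of a colorectal cancer cell line study. The arms were taken by name, and all 4 were listed in each of the 4 libraries, among 1882 miRNA names that the libraries share. Small RNA was sequenced from HT29 and HCT15, established human colorectal adenocarcinoma lines. HT29 spheres and HCT15 spheres were grown in DMEM-F12 to which bFGF and EGF (10 ng/ml each) and N2 Plus supplement were added, and the submitters call them sphere-derived cancer stem cells. HT29 parental cells were grown in DMEM and HCT15 parental cells in RPMI, each with 10% FBS, and every medium held penicillin and streptomycin. Each line and culture had 1 library, so no library had a replicate, and the spheres differ from the parental cells in the whole medium as well as in growth form.

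A miRNA hairpin is cut into a 5p and a 3p arm, and usually the more abundant arm is the strand that is loaded into Argonaute and represses messenger RNAs through its seed, bases 2 to 8. The pair of miR-221 and miR-222 is best known for repressing the cell cycle inhibitors CDKN1B (p27) and CDKN1C (p57) and, in endothelium, the receptor KIT. Both miRNAs are abundant in many epithelial tumours, and the 3p arms carry these activities.

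MIR221 lies on the X chromosome at 45746157 to 45746266 and MIR222 at 45747015 to 45747124, both on the minus strand (RefSeq, GRCh38.p14), with 748 bases between them. In GENCODE 29 (GRCh38), both lie in the intron from 45746101 to 45769785 of the long noncoding RNA MIR222HG, and neither overlaps an exon of it. On the minus strand MIR222 is transcribed before MIR221. By name, 3 of the 4 arms matched a RefSeq mature sequence, and these are shown because the 3p arms share their seed, which is in capitals.
miR-221-3p: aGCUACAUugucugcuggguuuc
miR-222-3p: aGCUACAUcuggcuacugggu
miR-222-5p: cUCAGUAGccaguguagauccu
The 3p arms are identical over their first 8 bases and then differ, apart from a further shared run of 6 bases. Of 2370 mature human miRNAs in the RefSeq table, no other shares the seed of the 3p arms, and none shares that of miR-222-5p. The hairpins show where the arms are cut, with these mature arms in capitals.
MIR221: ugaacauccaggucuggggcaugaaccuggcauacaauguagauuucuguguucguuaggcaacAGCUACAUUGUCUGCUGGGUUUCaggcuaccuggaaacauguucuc
MIR222: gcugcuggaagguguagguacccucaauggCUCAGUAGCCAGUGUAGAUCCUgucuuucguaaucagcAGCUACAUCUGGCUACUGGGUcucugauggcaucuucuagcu

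Listed miRNA reads came to 12794274 in HT29 spheres and 5806540 in HT29 parental cells, and to about 2317670 in HCT15 spheres and 3184749 in HCT15 parental cells, where reads were recovered from deposited RPKM values. Levels are in CPM, which divides a miRNA's value by the sum of its library so that libraries of different depth have the same total. The 8 miRNAs of a colorectal epithelium list, led by miR-192-5p in HT29 and miR-200b-3p in HCT15, were all above 10 CPM and summed to 236354 and 173941 CPM in HT29 spheres and parental cells, and to 15713 and 14487 CPM in those of HCT15. The miR-126 arms, markers of endothelium, a cell type rich in miR-221 and miR-222, summed to 256 and 293 CPM in HT29 spheres and parental cells and to 121 and 127 CPM in those of HCT15. Of 7 stromal and smooth muscle miRNAs, 2 to 4 were above 0, and they summed to 7.43 and 7.58 CPM in HT29 spheres and parental cells and to 15.2 and 20.7 CPM in those of HCT15. The highest in HT29 was miR-143-3p, at 6.10 and 3.79 CPM in spheres and parental cells. In HCT15 it was miR-199a-3p, at 13.9 and 15.8 CPM. miR-143-5p, miR-145-3p and miR-214-3p were at 0 throughout. Of 6 blood-cell miRNAs, 3 to 5 were above 0, with miR-223-3p at 0 throughout. They summed to 476 and 464 CPM in HT29 spheres and parental cells and to 62.4 and 59.1 CPM in those of HCT15. The highest in HT29 was miR-142-3p, at 367 and 381 CPM in spheres and parental cells. In HCT15 it was miR-486-5p, at 34.8 and 42.9 CPM. The part of such miRNAs in the results below was not tested.

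The 4 arms together made up 0.618% of listed values in HT29 spheres and 0.817% in HT29 parental cells, against 2.66% in HCT15 spheres and 2.63% in HCT15 parental cells. miR-222-3p was the most abundant arm in HCT15 and miR-221-3p in HT29. miR-221-3p was at 4259 CPM (54492 reads) in HT29 spheres and 4225 CPM (24532 reads) in HT29 parental cells. In HCT15 it was at 5791 CPM (13296 reads) in spheres and 4346 CPM (13689 reads) in parental cells. Outside the HCT15 spheres its levels thus lay between 4225 and 4346 CPM, and it ranked 24th to 44th by level in the libraries.

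miR-222-3p was at 1603 CPM (20507 reads) in HT29 spheres and 3656 CPM (21230 reads) in HT29 parental cells. In HCT15 it was at 19149 CPM (45144 reads) in spheres and 20182 CPM (65270 reads) in parental cells, ranks 15 and 14. Both HT29 levels were below both HCT15 levels, and the lowest was that of the HT29 spheres. As background, of 216 miRNAs averaging 50 CPM or more in spheres, 33.3% were past 2-fold lower in HT29 and 43.5% higher. Of 259 such miRNAs in parental cells these were 33.2% and 43.6%. These shares count 2-fold differences. The share of all miRNAs whose levels do not overlap between the lines was not counted, so the order of the miR-222-3p levels is only described.

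The 5p arms were scarcer. miR-221-5p was at 237 CPM (3033 reads) in HT29 spheres, 180 CPM (1047 reads) in HT29 parental cells, 713 CPM (1657 reads) in HCT15 spheres and 529 CPM (1687 reads) in HCT15 parental cells. miR-222-5p was at 79.6 CPM (1019 reads) in HT29 spheres, 112 CPM (648 reads) in HT29 parental cells, 935 CPM (2174 reads) in HCT15 spheres and 1280 CPM (4082 reads) in HCT15 parental cells. Both were higher in each HCT15 library than in each HT29 library, and so was miR-221-3p. The background above counts 2-fold differences and not this order, whose share over all miRNAs was not counted. The order of the arms was miR-221-3p, miR-222-3p, miR-221-5p, miR-222-5p in HT29 and miR-222-3p, miR-221-3p, miR-222-5p, miR-221-5p in HCT15. No neighbours in these orders had overlapping 95% counting intervals within a library. Those intervals cover counting error only, since reads carry no molecular identifiers and libraries have no replicate.

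**Figure D1:**
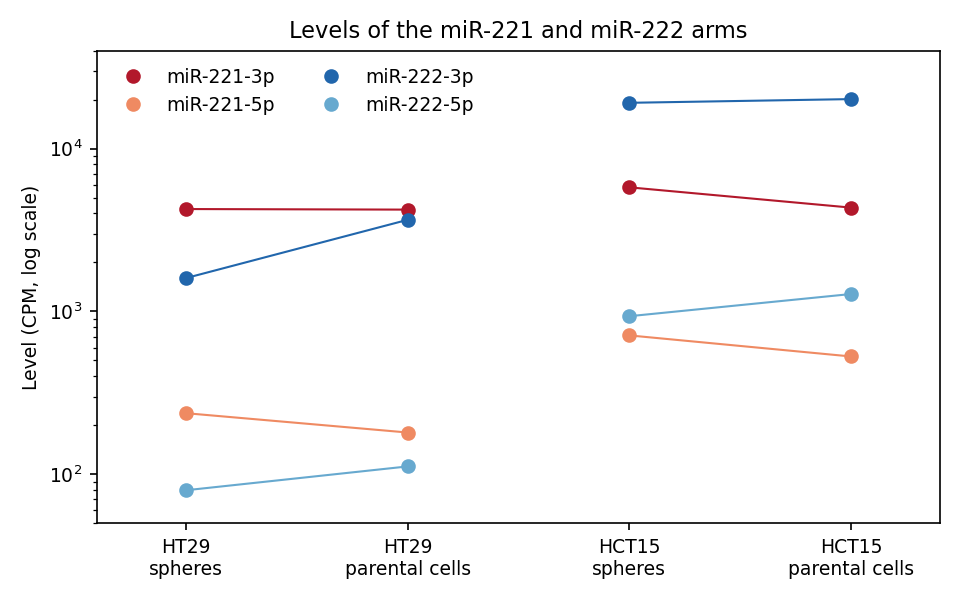
Level of each arm (CPM, log scale) in the 4 libraries, with 1 point per library and lines joining the cultures of a line. miR-221-3p stays between 4225 and 5791 CPM, whereas miR-222-3p lies at 1603 and 3656 CPM in HT29 spheres and parental cells and at 19149 and 20182 CPM in those of HCT15.

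The first question was how spheres compare with parental cells. Log2 ratios of spheres over parental cells were taken after TMM scaling, with 95% counting intervals. With this scaling, both miR-221 arms were higher in spheres of both lines. miR-221-3p had a log2 ratio of 0.59 (interval 0.57 to 0.62) in HT29 and 0.77 (0.73 to 0.80) in HCT15, or 1.51-fold and 1.70-fold. miR-221-5p had 0.98 (0.88 to 1.08) in HT29 and 0.78 (0.68 to 0.88) in HCT15, or 1.97-fold and 1.72-fold. Under 5 ways of scaling the libraries, each of these ratios stayed above 0. For miR-221-3p they ranged from 0.02, with total counts, to 0.82 in HT29 and from 0.41 to 1.02 in HCT15. Its HT29 levels in CPM, which are scaled by the library total, had overlapping 95% counting intervals. These were 4223 to 4295 CPM in spheres and 4172 to 4278 CPM in parental cells, so its rise in HT29 depends on the scaling. A scaling shifts all miRNAs of a line alike, by -0.58 to 0.22 from TMM in HT29 and by -0.35 to 0.26 in HCT15.

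The miR-222 arms did not follow. miR-222-3p had a log2 ratio of -0.61 (interval -0.63 to -0.58) in HT29, with a range of -1.19 to -0.38 over the scalings. In HCT15 it had 0.28 (0.26 to 0.29), with a range of -0.08 to 0.54, so its sign there depends on the scaling. miR-222-5p was near 0 in both lines, at 0.10 (-0.05 to 0.24) in HT29 and -0.10 (-0.18 to -0.03) in HCT15, and its sign changed with the scaling in each.

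With TMM over all 4 libraries, none of the 4 arms was past 2-fold in either line. As background, of 221 miRNAs averaging 50 CPM or more over the HT29 libraries, 12.7% were past 2-fold toward higher levels in spheres and 19.9% toward lower ones. Of 200 such miRNAs in HCT15 these were 4.0% and 2.0%. Some other scalings took an arm past 2-fold. With the upper quartile, miR-221-5p reached 1.20 in HT29 and 1.04 in HCT15, and miR-221-3p 1.02 in HCT15. With total counts, miR-222-3p reached -1.19 in HT29. TMM on the HT29 libraries alone took miR-221-5p to 1.16, and DESeq2 size factors took it to 1.00 in HCT15. The median log2 ratio of all miRNAs compared was 0.01 in HT29 and 0.09 in HCT15. In HT29, 71.9% of them had a lower ratio than miR-221-3p, 86.4% than miR-221-5p and 26.2% than miR-222-3p. In HCT15, 92.5% had a lower ratio than miR-221-3p and 93% than miR-221-5p.

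**Figure D2:**
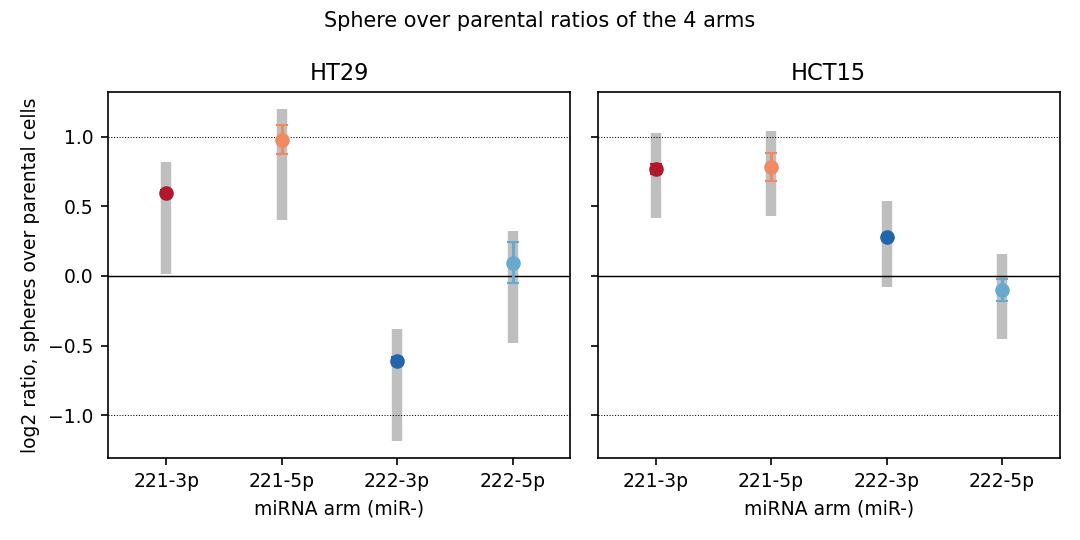
Log2 ratio of spheres over parental cells for each arm in HT29 and HCT15 after TMM scaling, with 95% counting intervals as error bars, the range over 5 scalings as grey bars, and dotted lines at 2-fold. The grey bars of both miR-221 arms lie above 0 in both lines, although that of miR-221-3p in HT29 reaches down to 0.02. The grey bar of miR-222-3p lies below 0 in HT29, and the others cross 0.

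With the lines as replicates, limma with cell line as a block was fitted over 377 miRNAs on log2(TMM-scaled CPM + 1), where fold changes of scarce miRNAs are understated. At a threshold of 0.05 on the p adjusted by Benjamini and Hochberg's method, 0.00% were called higher and 0.00% lower, while 21 miRNAs (5.57%) passed 0.05 without adjustment. edgeR and DESeq2, on HT29 counts and HCT15 values divided by a constant and rounded, called 6 and 5 miRNAs, none an arm of this pair. The limma log2 fold change was 0.68 (SE 0.32, adjusted p = 0.758) for miR-221-3p and 0.88 (SE 0.42, adjusted p = 0.758) for miR-221-5p, each higher in both lines. For miR-222-3p it was -0.17 (SE 0.37, limma adjusted p = 0.934) and for miR-222-5p -0.003 (SE 0.42, limma adjusted p = 0.998). The adjusted p of the arms ranged from 0.488 to 1.00 over 10 alternative fits. With 4 libraries, 1 residual degree of freedom was left. The p-values set the mean response of the lines against a variance. That variance comes from how far the lines differ in response and, through limma's moderation, from the other miRNAs.

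The share of miR-221 within the pair needs no scaling between libraries. In both lines, and for both arms, miR-221 took a larger share in spheres. miR-221-3p made up 72.7% (exact binomial 95% interval 72.3% to 73.0%) of the reads of the 3p arms in HT29 spheres, against 53.6% (53.1% to 54.1%) in HT29 parental cells. In HCT15 it made up 22.8% (22.4% to 23.1%) in spheres and 17.3% (17.1% to 17.6%) in parental cells. miR-221-5p made up 74.9% of the 5p reads in HT29 spheres and 61.8% in HT29 parental cells, and 43.3% in HCT15 spheres against 29.2% in HCT15 parental cells. No pair of these intervals overlapped between spheres and parental cells. On the log2 scale, the sphere over parental ratio of miR-221-3p exceeded that of miR-222-3p by 1.20 in HT29 and 0.49 in HCT15, and that of miR-221-5p exceeded that of miR-222-5p by 0.88 in each line. With 1 library per line and culture, no test over samples was made of this difference.

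Other hairpins that lie close together were compared in the same way. Each hairpin stood for its more abundant arm over the 4 libraries and was left out where that arm is shared with another hairpin. Next neighbours among the kept hairpins with RefSeq positions were then paired, if within 10 kb on a strand and both averaging 50 CPM or more. This description was chosen with earlier results in view. In HT29, 5 of 18 other pairs had ratios further apart than miR-221-3p and miR-222-3p, and the median over the 19 pairs was 1.02. In HCT15 it was 2 of 17, with a median of 0.15 over the 18 pairs, and 1 of 13 where a mean of 200 CPM was required. Named after their values were seen, the HT29 pairs further apart were miR-425-5p with miR-191-5p, miR-660-5p with miR-502-3p, miR-19a-3p with miR-20a-5p, miR-23b-3p with miR-27b-3p, and miR-27a-3p with miR-23a-3p. Those in HCT15 were let-7e-5p with miR-125a-5p and miR-449b-5p with miR-449c-5p.

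Because the 3p arms share a seed, their sum was also followed. They summed to 5862 CPM in HT29 spheres and 7881 CPM in HT29 parental cells, with a log2 ratio of 0.16 after TMM scaling and a range of -0.42 to 0.38 over the scalings. In HCT15 they summed to 24939 CPM in spheres and 24528 CPM in parental cells, with 0.38 and a range of 0.02 to 0.63. The direction of the sum thus depends on the scaling in HT29.

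**Figure D3:**
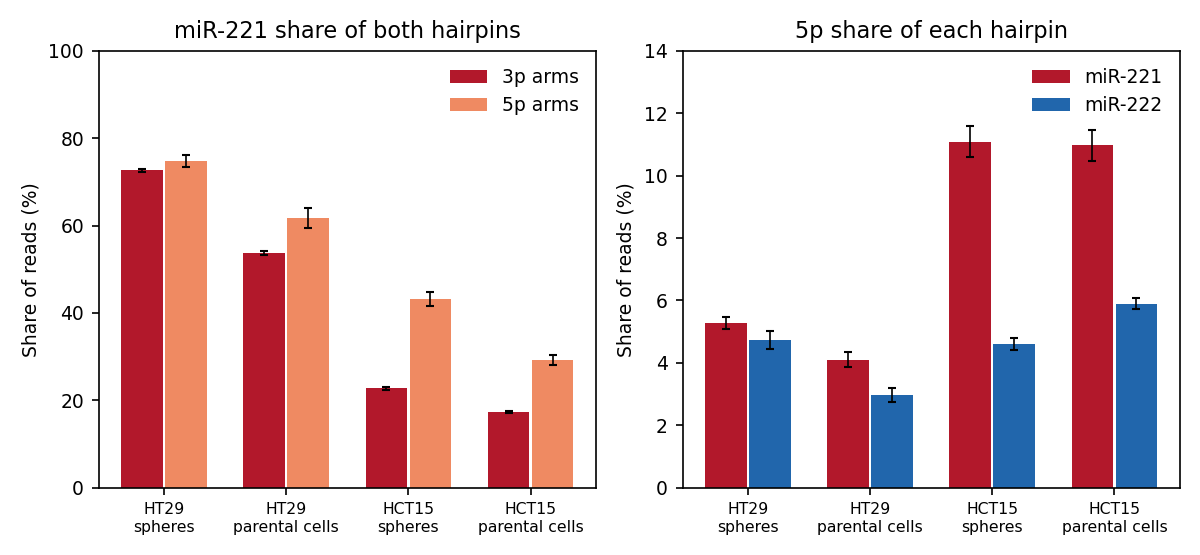
Left, reads of miR-221 as a percentage of the reads of miR-221 and miR-222, for the 3p and the 5p arms; right, 5p reads as a percentage of both arms of a hairpin, with exact binomial 95% intervals as error bars. In both lines the miR-221 share is larger in spheres, and the 5p share of miR-221 is at 5.27% and 4.09% in HT29 spheres and parental cells and at 11.08% and 10.97% in those of HCT15.

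The 3p arm dominated both hairpins in every library. The 5p arm of miR-221 took 5.27% (5.09% to 5.46%) of its reads in HT29 spheres and 4.09% (3.85% to 4.34%) in HT29 parental cells. In HCT15 it took 11.08% (10.6% to 11.6%) in spheres and 10.97% (10.5% to 11.5%) in parental cells, which do not differ beyond counting error. The 3p arm was thus 17.97 and 23.4 times as abundant as the 5p arm in HT29 spheres and parental cells, and 8.02 and 8.11 times in those of HCT15.

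For miR-222, the 5p share was 4.73% (4.45% to 5.03%) in HT29 spheres and 2.96% (2.74% to 3.20%) in HT29 parental cells. In HCT15 it was 4.59% (4.41% to 4.79%) in spheres and 5.89% (5.71% to 6.06%) in parental cells. The share was thus larger in spheres of HT29 and smaller in spheres of HCT15, and the sphere libraries of the lines had overlapping intervals. The 3p arm of miR-222 was 20.1 and 32.8 times as abundant as its 5p arm in HT29 spheres and parental cells, and 20.8 and 16.0 times in those of HCT15. Spheres minus parental cells, the log2 5p over 3p ratio of miR-222 differed by 0.70 in HT29 and -0.38 in HCT15, and that of miR-221 by 0.38 and 0.02. Of 161 hairpins with at least 100 reads over both arms in the HT29 libraries, 82 differed by more than miR-222 and 117 by more than miR-221. In HCT15, 76 and 112 of 115 did. The minor arm shares of the pair were above the median hairpin, which was at 2.19% to 3.16% in the libraries.

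HT29 was then set beside HCT15. The files of the lines hold different units and were normalized separately, and format, line and any batch cannot be told apart, so no test was made. All arms were lower in HT29, the miR-222 arms most and miR-221-3p least. The log2 ratio of HT29 over HCT15 for miR-222-3p was -3.63 in spheres and -2.75 in parental cells, which is 12.4-fold and 6.72-fold lower in HT29. For miR-222-5p it was -3.60 and -3.80, or 12.2-fold and 13.9-fold lower. For miR-221-5p it was -1.64 and -1.83, or 3.12-fold and 3.57-fold lower. For miR-221-3p it was -0.50 and -0.33, or 1.41-fold and 1.25-fold lower, with ranges of -0.73 to -0.43 in spheres and -0.52 to -0.03 in parental cells over the scalings.

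In both cultures 3 of the 4 arms were thus past 2-fold lower in HT29. The background is high, since 33.3% of 216 measured miRNAs were so in spheres and 33.2% of 259 in parental cells. Past 2-fold higher in HT29 were 43.5% and 43.6%, and the median log2 ratios were 0.23 and 0.43. Of these miRNAs, 12.5% had a lower ratio than miR-222-3p in spheres and 18.9% in parental cells, so many miRNAs differed more between the lines. The ratio of miR-221-3p exceeded that of miR-222-3p by 3.14 in spheres and 2.42 in parental cells. Among other neighbouring hairpin pairs, 11 of 19 in spheres and 13 of 22 in parental cells lay further apart. The summed level of the 3p arms was 4.42-fold lower in HT29 spheres and 3.79-fold lower in HT29 parental cells than in HCT15.

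**Figure D4:**
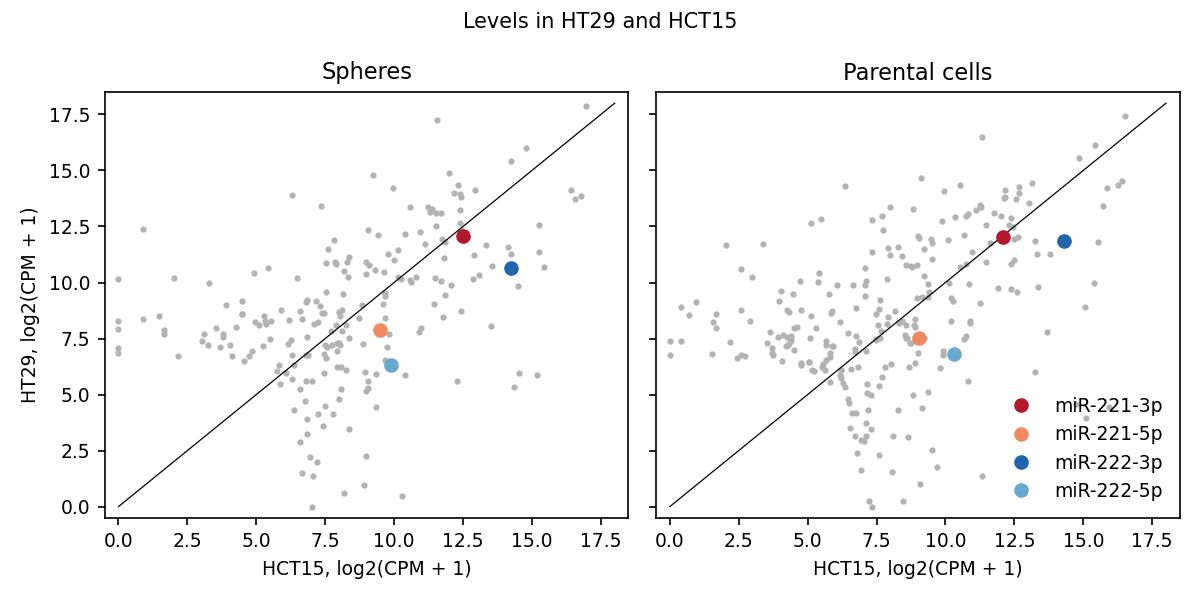
Level in HT29 against level in HCT15, as log2(CPM + 1), for spheres and parental cells, with grey points for miRNAs that average 50 CPM or more and a line at equal levels. miR-221-3p lies nearest to the line of equal levels of the 4 arms, and the other 3 lie further below it in both cultures.

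The miRNAs nearest to miR-221-3p in level pattern over the 4 libraries were not members of the pair. By Euclidean distance of log2(CPM + 1), centred on each miRNA's mean and compared over 235 others with a mean of at least 50 CPM, they were miR-4454 (0.16), miR-24-2-5p (0.22), miR-181d (0.26), miR-30e-5p (0.33) and miR-181b-5p (0.35). Its own 5p arm was at a distance of 1.35 and miR-222-3p at 2.93. Closest to miR-221-5p were miR-27a-5p (0.50), miR-182-5p (0.54), miR-30d-3p (0.61), miR-181a-5p (0.68) and miR-340-5p (0.71). These distances describe 4 libraries only and carry no test. They use CPM without TMM scaling, unlike the ratios above, and miR-221-3p was at 4259 and 4225 CPM in HT29 spheres and parental cells. The miRNAs nearest to it did not all share a direction there. miR-4454 was at 155 and 171 CPM in HT29 spheres and parental cells, and miR-30e-5p at 3609 and 3449 CPM.

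Other miRNAs known to target CDKN1B were set beside the pair. Of 5 on the list, in HT29 spheres 2 were past 2-fold higher and 1 past 2-fold lower, with a median log2 ratio of 0.71, against 12.7% and 19.9% of all miRNAs compared and their median of 0.01. In HCT15 spheres 1 was past 2-fold higher and none lower, with a median of 0.45, against 4.0% and 2.0% of all and their median of 0.09. Lists this short are described and not tested. miR-148a-3p had log2 ratios of 2.35 in HT29 and 0.74 in HCT15, miR-24-3p 0.71 and 0.45, miR-181a-5p 0.33 and 1.20, and miR-196a-5p -1.37 and -0.03. limma called 0 of these 5, and 0 of all 377 miRNAs tested.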

How the data were processed

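Small RNA libraries were prepared with a TruSeq kit, per the labels' protocols. Each line came in its own unit: per the file headers, the authors deposited a raw read count for each mature miRNA of HT29, and RPKM for HCT15. Names follow miRBase R19 and, in the submitters' processing notes, the build is hg19. Not given in the sources used here: aligner, trimming and handling of reads with several matches. Coordinates here are from GRCh38 annotation.

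The deposited RPKM values summed to 612602 in HCT15 spheres and 516401 in HCT15 parental cells. Low values were multiples of a step that rose with mature length as length over (length + 9), not of a value per kilobase. For 22 bases, 1 read was worth 0.263 in spheres, where the commonest value was taken as 2 reads, and 0.162 in parental cells. Within 0.02 reads, 73.4% of 289 low values in spheres and 70.1% of 595 in parental cells were then whole, against 41.0% and 44.8% with a single step. For the 4 arms, reads came out whole within 0.2 of a read, taking 22 bases for miR-221-5p. Levels and ratios use values as deposited, and shares and intervals use these reads. With the commonest value as 1 read instead, the interval of the HCT15 log2 ratio of miR-221-5p would be 0.66 to 0.90.

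Ratios used TMM factors (edgeR 4.0.16) and a prior count of 2. limma 3.58.1 in R 4.3.3 tested miRNAs that reached 10 CPM in 2 or more of the libraries, with a mean-variance trend and cell line as a block, on a mixture of units, so edgeR and DESeq2 1.42.0 on counts and rounded reads were alternatives. Python 3.11.15, numpy 2.4.6, pandas 2.3.3 and scipy 1.17.1 did the rest. Named beside the arms were the 5 miRNAs nearest in pattern to each miR-221 arm, others sharing a seed, and up to 4 per list by mean level; 1 of the lists is not reported here. The arms, lists and rules were chosen with earlier results of these data known. Of 1882 names, 1575 were matched to RefSeq.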

Additional observations from a re-analysis of the deposited data

Results flagged for a closer look

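miR-222-3p had a log2 ratio of spheres over parental cells of -0.61 in HT29 and 0.28 in HCT15, so the lines moved in opposite directions. The difference between the lines was not tested, and the HCT15 sign changed with total counts.

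The 5p share of miR-222 was 1.77 percentage points larger in spheres than in parental cells of HT29, whereas in HCT15 the difference was -1.29 points. The difference between the lines was not tested, and it rests on 1 library per line and culture.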

How the results depend on the processing

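The count of miRNAs past the threshold across lines was 0 under 6 alternatives, among them leaving out the line as a replicate block, but 5 with totals without the 10 most abundant miRNAs, 7 without a filter, 6 with edgeR and 5 with DESeq2. Across lines, miR-221-3p and miR-221-5p kept their sign in each fit, whereas miR-222-3p reversed to 0.076 with the upper quartile, and miR-222-5p to 0.12 with DESeq2 size factors, 0.24 with the upper quartile, 0.12 with edgeR and 0.086 with DESeq2, and the cause was not tested. Within a line alone, miR-222-3p ranged from -0.61 to 0.28 and miR-222-5p from -0.10 to 0.10.

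Within lines, scaling moved all 4 arms together. In the order miR-221-3p, miR-221-5p, miR-222-3p, miR-222-5p, total counts gave HT29 log2 ratios of 0.015, 0.40, -1.19 and -0.48. Totals without the 10 most abundant gave 0.33, 0.71, -0.87 and -0.17, the upper quartile gave 0.82, 1.20, -0.38 and 0.32, and TMM within the line gave 0.78, 1.16, -0.42 and 0.28. In HCT15, total counts gave 0.41, 0.43, -0.076 and -0.45, totals without the 10 most abundant gave 0.53, 0.54, 0.035 and -0.34, the upper quartile gave 1.02, 1.04, 0.54 and 0.16, and DESeq2 size factors gave 0.98, 1.00, 0.50 and 0.12.

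Multiplying HCT15 values by mature length gave 5p shares of 10.5% and 10.4% for miR-221 and 4.87% and 6.23% for miR-222 in spheres and parental cells. The miR-221-3p share became 24.9% and 19.1%, or 23.2% and 17.7% with values as deposited, an alternative added after seeing the data. Its direction between spheres and parental cells held in each. HT29 over HCT15 ratios kept their sign in each setting run. Depth limits the 5p arms most, at 648 reads or more.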

Other observations

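Other miRNAs of the X chromosome were set beside the pair. Of 110 such names in all files, 15 reached a mean of 50 CPM in HT29, of which, in spheres, 1 was past 2-fold higher and 4 past 2-fold lower, with a median log2 ratio of -0.23, against 12.7% and 19.9% of all miRNAs compared and their median of 0.01. In HCT15, 9 reached it and none was past 2-fold, against 4.0% higher and 2.0% lower of all. limma called 0 of the 27 tested, and 0 of all 377 miRNAs tested. HT29 over HCT15, 10 of 13 were past 2-fold higher and 2 lower in spheres, and 9 of 16 higher and 2 lower in parental cells, with median log2 ratios of 3.28 and 2.36. Of all miRNAs compared, 43.5% were past 2-fold higher and 33.3% lower in HT29 spheres, and 43.6% higher and 33.2% lower in parental cells, with medians of 0.23 and 0.43. miR-452-5p was at 5366 and 3313 CPM in HT29 spheres and parental cells, against 0.860 and 3.13 CPM in those of HCT15, where 3 reads are worth 1.29 and 0.942 CPM. miR-18b-5p was at 1380 and 6380 CPM in HT29 spheres and parental cells, against 28.96 and 33.5 CPM in those of HCT15.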
